A study of Mus musculus with 6 samples.

Results

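The genes described here are 8 members of the nitric oxide and cyclic GMP (cGMP) pathway of the cerebellum: Nos1, Gucy1a1, Gucy1b1, Pde1b, Pde5a, Pde9a, Prkg1 and Ppp1r17. They were taken by symbol from a count table of 53746 genes, and all 8 were among the 16961 genes with enough counts to be tested. Bulk RNA-seq of whole cerebellum was compared between 3 N153SLSL/LSLPcp2-cre mice, called Pcp2-cre below, and 3 N153SLSL/LSL mice, called control. Both genotypes carried the N153S allele of Sting1, a constitutively active form of STING, behind a lox-STOP-lox cassette on both chromosomes, and only the Pcp2-cre mice carried the Cre recombinase driven in Purkinje cells by the Pcp2 promoter. All mice were 2 months old, and in each genotype mice 1 and 2 were male and mouse 3 was female. Total counts were 8151391, 6809768 and 10178218 in control mice 1 to 3 and 7565899, 8572674 and 6733178 in Pcp2-cre mice 1 to 3.

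As background, neuronal nitric oxide synthase makes nitric oxide, which activates soluble guanylate cyclase to produce cGMP. In Purkinje cells cGMP activates cGMP-dependent protein kinase, which phosphorylates G-substrate, an inhibitor of protein phosphatases, and phosphodiesterases end the signal by hydrolysing cGMP. This route is known for its part in long-term depression at the synapse between parallel fibres and Purkinje cells.

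Sting1 was measured first as a check of the labels. Its level was 23.2, 27.3 and 26.2 CPM (counts scaled to library size with TMM factors) in control mice 1 to 3 and 44.4, 34.2 and 35.5 CPM in Pcp2-cre mice 1 to 3. Every Pcp2-cre mouse lay above every control mouse, with a log2 fold change of 0.57 ± 0.10 (SE) and an adjusted p of 0.000359 (edgeR, quasi-likelihood). The summed level of 10 microglia markers was also higher in these mice, at 293, 289 and 320 CPM against 114, 113 and 113 CPM in control, and their part in the Sting1 difference was not tested. Control mouse 3 stood apart from the other controls in choroid plexus genes. The summed level of 10 choroid plexus markers was 832, 1280 and 33.5 CPM in control mice 1 to 3 and 25.2, 32.2 and 89.4 CPM in Pcp2-cre mice 1 to 3. None of the 10 was at 0 in all 6 mice, and the most abundant, Ttr, had a mean of 716 FPKM in control against 18.4 FPKM in Pcp2-cre mice. The part of choroid plexus tissue in the results was not tested. In a fit without control mouse 3 both remaining controls had the high levels of these markers, so that the choroid plexus level and the genotype cannot be told apart there.

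Prkg1, Pde5a and Ppp1r17 were lower in Pcp2-cre cerebellum, while the genes for nitric oxide and cGMP synthesis were not. A gene was called at an adjusted p of at most 0.05 (Benjamini-Hochberg over all 16961 genes) with an absolute log2 fold change of at least 0.5. By this rule 3 of the 8 genes were called lower, against 1.79% of all tested genes, and 0 were called higher, against 1.37%. The count called higher was also 0 with DESeq2 and with limma, and 1 of the 8, Gucy1a1, had a higher level at an unadjusted p under 0.05. The share of all tested genes at that unadjusted limit is not given here. Counts at it, for these genes and for the lists below, are therefore a description only. At an adjusted p of at most 0.05 and any fold change 4 of the 8 were lower, against 4.75% of all tested genes, and 1 was higher, against 2.99%. In 4 of the 8 no Pcp2-cre mouse reached the lowest control, against 11.4% of tested genes, and in 1 all Pcp2-cre mice exceeded the highest control, against 10.8%. In whole tissue, fewer Purkinje cells and less RNA per Purkinje cell cannot be told apart.

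**Figure D1:**
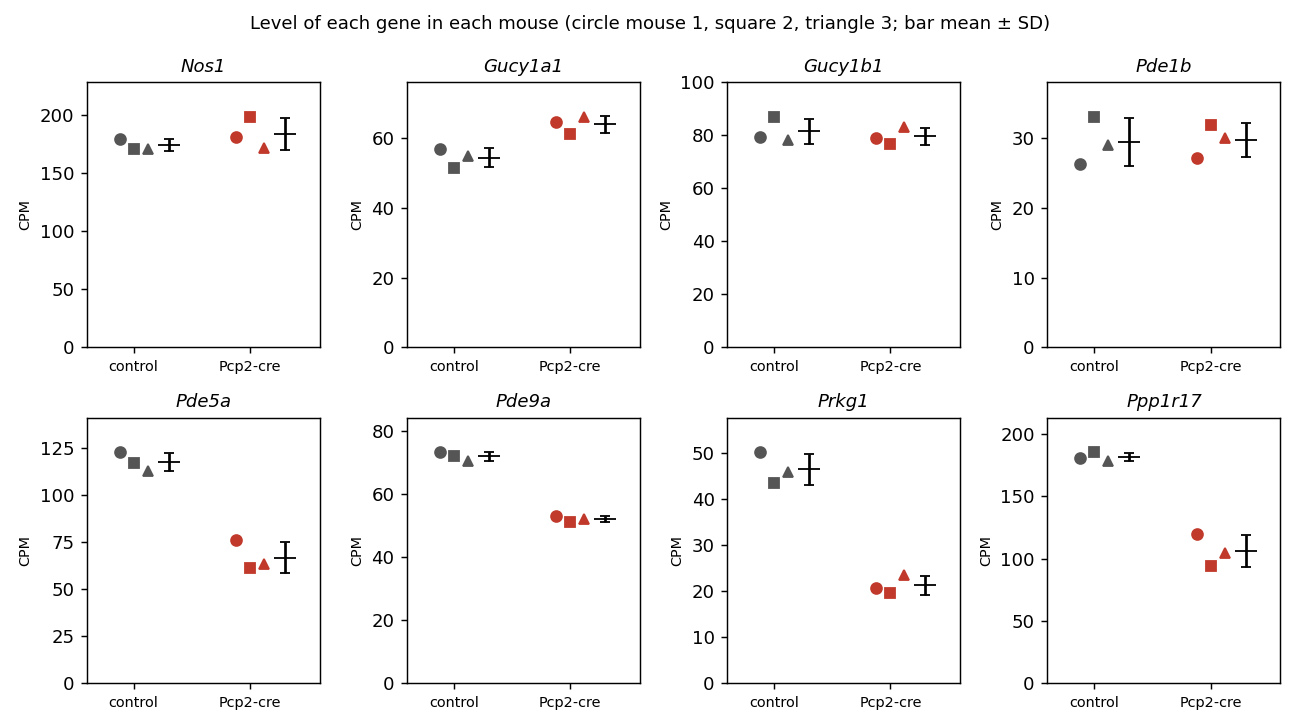
Level of each gene in CPM (vertical axis, starting at 0) in the 3 control (grey) and 3 Pcp2-cre mice (red), with the mean and SD beside the points. Pde5a, Pde9a, Prkg1 and Ppp1r17 lay lower in every Pcp2-cre mouse than in any control, Gucy1a1 lay higher, and the other genes overlapped.

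Prkg1 encodes the cGMP-dependent protein kinase of Purkinje cells and of smooth muscle. The gene lies on the minus strand at chr19:30541889-31742479 (GRCm39). RefSeq (GRCm38.p6) lists a pair of start sites for it, which the gene-level counts do not separate, and 1 for Pde5a. Their promoters are shown because these genes were lower together. Each is given 5′ to 3′ on the gene's strand, with the 250 bases before the start in lower case and the 50 bases after it in capitals.
Prkg1, chr19:31764984-31765283, minus strand: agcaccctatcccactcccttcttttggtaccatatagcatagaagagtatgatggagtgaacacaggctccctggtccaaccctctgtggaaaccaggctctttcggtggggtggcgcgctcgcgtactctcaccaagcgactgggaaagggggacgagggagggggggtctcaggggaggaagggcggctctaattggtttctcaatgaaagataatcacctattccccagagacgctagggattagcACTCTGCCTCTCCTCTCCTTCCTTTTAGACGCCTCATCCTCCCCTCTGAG
Prkg1, chr19:31664321-31664620, minus strand: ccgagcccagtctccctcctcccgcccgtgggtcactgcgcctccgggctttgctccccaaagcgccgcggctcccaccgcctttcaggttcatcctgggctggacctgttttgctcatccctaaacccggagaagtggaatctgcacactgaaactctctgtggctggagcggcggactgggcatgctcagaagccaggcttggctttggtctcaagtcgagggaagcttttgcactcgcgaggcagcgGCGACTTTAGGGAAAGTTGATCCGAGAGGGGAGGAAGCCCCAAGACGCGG
Pde5a, chr3:122728908-122729207, plus strand: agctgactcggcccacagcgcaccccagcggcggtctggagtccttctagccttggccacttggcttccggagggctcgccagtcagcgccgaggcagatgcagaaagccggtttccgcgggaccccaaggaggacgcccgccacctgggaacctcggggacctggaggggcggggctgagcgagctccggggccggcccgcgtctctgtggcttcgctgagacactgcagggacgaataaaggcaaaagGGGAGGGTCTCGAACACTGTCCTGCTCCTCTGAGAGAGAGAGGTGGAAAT

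Promoters were matched for 6 of the 8 genes, with 10 start sites in all, and Pde9a and Ppp1r17 were not matched. The letters AGGTCA, a form of the core half-site of ROR receptors, and TGACG, the half-site of the cAMP response element, were searched on both strands. Other forms were not searched. AGGTCA was in 16.3% and TGACG in 20.8% of all 32851 promoters of 300 bases. Neither was in the 3 sequences shown, which says only that these letters are absent from these windows. Among the 10 start sites TGACG had 1 match in the promoter of Gucy1b1 and 1 in that of Nos1, and AGGTCA had none.

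Prkg1 had a level of 50.2, 43.5 and 45.9 CPM in control mice 1 to 3 and 20.6, 19.6 and 23.5 CPM in Pcp2-cre mice 1 to 3. The groups were well apart, with the highest Pcp2-cre mouse below the lowest control. The log2 fold change was -1.14 ± 0.08 (SE, 3 mice per genotype), with an adjusted p of 4.96e-09 (edgeR), so that the level in Pcp2-cre mice was 0.454 of control (95% confidence interval 0.401 to 0.513). Of the 8 genes it changed most. Prkg2, which encodes the other cGMP-dependent kinase, had 10, 2 and 10 counts in control and 6, 10 and 9 in Pcp2-cre mice and was not tested.

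Ppp1r17 encodes G-substrate, the phosphatase inhibitor that the kinase phosphorylates. Its position is chr6:55989619-56009674 on the plus strand (GRCm39). Its level was 181, 186 and 179 CPM in control mice 1 to 3 and 120, 94.1 and 104 CPM in Pcp2-cre mice 1 to 3. Control mice varied little, with an SD of 3.46 CPM, and Pcp2-cre mice more, with an SD of 13.1 CPM. The log2 fold change was -0.78 ± 0.06 (SE), with an adjusted p of 6.24e-09 (edgeR).

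Pde5a, a phosphodiesterase specific for cGMP, lies at chr3:122522594-122653023 on the plus strand (GRCm39). It was at 123, 117 and 113 CPM in control mice 1 to 3 and at 76.1, 61.2 and 63.2 CPM in Pcp2-cre mice 1 to 3. Pcp2-cre mouse 1 was the highest of its group and still below each control. The log2 fold change was -0.82 ± 0.06 (SE), with an adjusted p of 7.42e-09 (edgeR). Antisense genes share exons with Pde5a: 4933405D12Rik, over 16.0% of its exon bases, had at most 2 counts in any mouse, and 4930447N08Rik, over 2.29%, had 34, 26 and 40 counts in control and 11, 13 and 15 in Pcp2-cre mice. Whether the counting used strand is not given in the sources used here.

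Pde9a, which encodes a cGMP phosphodiesterase of high affinity, lies at chr17:31605104-31695284 on the plus strand (GRCm39). Levels were 73.1, 71.9 and 70.3 CPM in control mice 1 to 3 and 53.0, 50.9 and 52.1 CPM in Pcp2-cre mice 1 to 3. The spread within each genotype was small, with SDs of 1.38 and 1.03 CPM, and the groups did not overlap. With a log2 fold change of -0.47 ± 0.05 (SE) and an adjusted p of 4.06e-06 (edgeR), the gene passed on p and missed the fold limit of 0.5. Opposite-strand genes Gm50138 and Gm9902 share 3.74% and 3.29% of its exon bases.

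Pde1b, a phosphodiesterase activated by calcium and calmodulin, lies at chr15:103411286-103439706 on the plus strand (GRCm39). Its level was 26.3, 33.1 and 29.0 CPM in control against 27.1, 32.0 and 30.0 CPM in Pcp2-cre mice 1 to 3. The groups overlapped. The log2 difference of 0.02 had a 95% confidence interval from -0.17 to 0.21 and an adjusted p of 0.94 (edgeR), and its sign changed with the unit and with the mice left out. Ppp1r1a, on the opposite strand, shares 35.4% of the exon bases of Pde1b, so reads of the pair could be confused if the counting ignored strand.

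Nos1, the neuronal nitric oxide synthase, lies at chr5:117918971-118096905 on the plus strand (GRCm39). Its level was 179, 171 and 171 CPM in control mice 1 to 3 and 180, 198 and 171 CPM in Pcp2-cre mice 1 to 3. The groups overlapped, with Pcp2-cre mouse 2 the highest. The log2 difference of 0.08 had a 95% confidence interval from -0.02 to 0.18 and an adjusted p of 0.441 (edgeR). It was 0.02 without Pcp2-cre mouse 2 and 0.12 without Pcp2-cre mouse 3. Antisense genes Gm26995 and Gm30360 share 2.36% and 1.64% of its exon bases.

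Gucy1a1 and Gucy1b1 encode the alpha and beta subunits of soluble guanylate cyclase, and lie on the minus strand at chr3:81999733-82053216 and chr3:81939312-81982022 (GRCm39). Gucy1a1 was at 56.9, 51.4 and 54.7 CPM in control against 64.5, 61.2 and 66.0 CPM in Pcp2-cre mice 1 to 3. Every Pcp2-cre mouse was above every control, with a log2 difference of 0.23 ± 0.06 (SE) and an adjusted p of 0.0188 (edgeR), under the fold limit. That adjusted p was 0.0705 without control mouse 2, 0.0755 without Pcp2-cre mouse 1, 0.0952 without Pcp2-cre mouse 3, 0.122 with DESeq2 and 0.149 with the choroid plexus covariate, in a range of 0.00736 to 0.149 over all alternatives. The log2 difference ran from 0.19 to 0.28 over the same alternatives. Gucy1b1 was at 79.3, 87.0 and 78.4 CPM in control against 78.9, 76.9 and 83.0 CPM in Pcp2-cre mice 1 to 3. Here the groups overlapped, and the log2 difference of -0.03 had a 95% confidence interval from -0.14 to 0.08 and an adjusted p of 0.826 (edgeR).

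**Figure D2:**
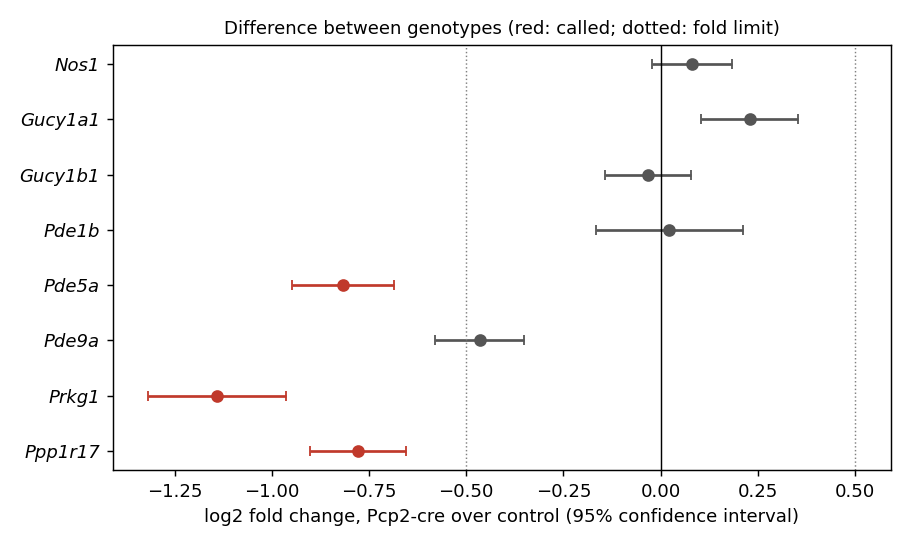
Log2 fold change of each gene in Pcp2-cre over control mice (horizontal axis) with its 95% confidence interval, called genes in red and the fold limit of 0.5 dotted. The intervals of Pde5a, Prkg1 and Ppp1r17 lay below -0.5, that of Pde9a from -0.58 to -0.35, and those of Nos1, Gucy1b1 and Pde1b included 0.

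Without control mouse 3 the log2 fold changes were -1.16 for Prkg1, -0.85 for Pde5a, -0.79 for Ppp1r17 and -0.48 for Pde9a. With the choroid plexus level as a covariate they were -1.12, -0.78, -0.77 and -0.44 in the same order.

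Levels were compared between genes by FPKM, which is per length of transcript. In control mice Ppp1r17 was highest at 96.9 ± 3.09 FPKM (SD, n = 3), followed by Pde9a at 27.5 ± 0.242, Gucy1b1 at 21.0 ± 1.65, Nos1 at 14.7 ± 0.591, Pde5a at 13.6 ± 0.690, Gucy1a1 at 10.2 ± 0.217, Pde1b at 7.47 ± 0.606 and Prkg1 at 5.77 ± 0.563 FPKM. No neighbours in this order overlapped among the control mice. In Pcp2-cre mice the order was Ppp1r17 at 54.0 ± 5.67 FPKM, Gucy1b1 at 21.7 ± 0.721, Pde9a at 21.1 ± 1.24, Nos1 at 15.6 ± 1.93, Gucy1a1 at 12.4 ± 0.506, Pde5a at 7.73 ± 1.03, Pde1b at 7.33 ± 0.753 and Prkg1 at 2.69 ± 0.286 FPKM. Here Gucy1b1 and Pde9a overlapped, as did Pde5a and Pde1b.

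Purkinje cell markers were lower in the same mice. Of 10 markers 8 were called lower and all 10 had an adjusted p of at most 0.05 (edgeR). The median of their log2 fold changes was -0.71, and that of all tested genes 0.0045. The single markers ran from -0.96 for Car8 to -0.40 for Pcp2. Their summed level was 4062, 4161 and 3762 CPM in control against 2570, 2207 and 2358 CPM in Pcp2-cre mice 1 to 3. The most abundant, Pcp2, was at 552 FPKM in control against 395 FPKM in Pcp2-cre mice, and none was at 0.

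Each gene was then set against the mean log2(CPM + 1) of these markers in the same mouse. The marker mean was lower by 0.69 in Pcp2-cre mice, so a gene whose level did not differ in whole tissue is higher on this scale by construction. Relative to the control mean, Prkg1 was at 0.12, -0.14 and 0.03 in control and at -0.55, -0.45 and -0.23 in Pcp2-cre mice 1 to 3, a difference of -0.41 beyond that of the markers. On this scale Prkg1 was the only 1 of the 8 genes to lie below the markers in every Pcp2-cre mouse without overlap with control. Relative to the median of the markers Pde5a and Ppp1r17 did so too, at -0.25 and -0.21, and on log2(FPKM + 1) Ppp1r17 did so at -0.16 while Prkg1, at -0.20, overlapped with control. Relative to Calb1 alone Ppp1r17 was at -0.02 and Pde5a at -0.05, with exact permutation p of 0.9 and 0.3. Prkg1 was at -0.34 relative to Calb1, with an exact permutation p of 0.10. Relative to the marker mean, Ppp1r17 was at -0.04 without Pcp2-cre mouse 2 and at -0.14 without Pcp2-cre mouse 1, and Pde5a at -0.07 on log2(FPKM + 1). The exact two-sided permutation p of 0.10 for Prkg1 is the smallest that 3 against 3 mice allow. Ppp1r17 differed from the marker mean by -0.09 and Pde5a by -0.13, each with an exact permutation p of 0.2 and with overlapping groups. Pde9a was higher than the marker mean by 0.23, and Nos1, Gucy1a1, Gucy1b1 and Pde1b by 0.65 to 0.92, each with an exact permutation p of 0.10. The log2 fold change of Pde9a in whole tissue, -0.47, lay within the range of the single markers, -0.96 to -0.40. Relative to the median of the markers Pde9a was higher by 0.11, with an exact permutation p of 0.2 and overlapping groups.

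**Figure D3:**
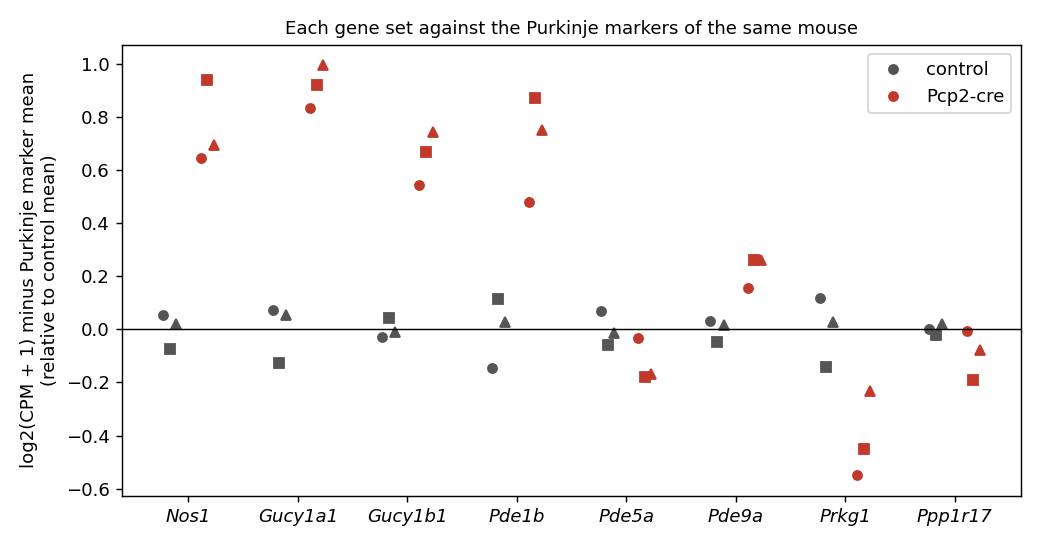
Level of each gene as log2(CPM + 1) minus the mean of 10 Purkinje markers of the same mouse (vertical axis), with the control mean set to 0, for 3 control (grey) and 3 Pcp2-cre mice (red). The Pcp2-cre mice lay at -0.19 to -0.01 for Ppp1r17, -0.18 to -0.03 for Pde5a and -0.55 to -0.23 for Prkg1.

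Markers of other cell types also moved. Of 10 microglia markers 8 were called higher, with sums of 114, 113 and 113 CPM in control against 293, 289 and 320 CPM in Pcp2-cre mice. Of 10 astroglia markers 2 were called higher, with sums of 2428, 2405 and 2348 CPM in control against 2731, 2813 and 2832 CPM in Pcp2-cre mice, and with Slc1a3, the most abundant, at 258 and 220 FPKM. Gfap was at 121 CPM in control against 463 CPM in Pcp2-cre mice, and at an adjusted p of at most 0.05 and any fold change 4 of the 10, Gfap, Aqp4, S100b and Gja1, were higher and 2, Slc1a3 and Gdf10, lower (edgeR). Of 10 oligodendrocyte markers 1 was called higher by edgeR, 0 by DESeq2 or limma, and 8 were higher at an adjusted p of at most 0.05 and any fold change (edgeR), with sums of 3749, 3724 and 3957 against 4591, 4371 and 4561 CPM and Mbp at 801 and 999.7 FPKM. Granule cell, interneuron and mural or endothelial markers had 0 of 10 called in either direction each by edgeR, with median log2 fold changes of 0.03, -0.04 and 0.09 and with Cbln3, Gad1 and Rgs5 the most abundant. At an adjusted p of at most 0.05 and any fold change 1 granule cell marker, Neurod1, was higher and 2 interneuron markers, Slc32a1 and Gad1, were lower (edgeR). The interneuron sums, which include Gad1 and Slc32a1, were 1206, 1206 and 1180 CPM in control against 1093, 1125 and 1127 CPM in Pcp2-cre mice. Gad1 was at 492.9 CPM in control against 438.3 CPM in Pcp2-cre mice, and Slc32a1 at 145.2 against 122 CPM. No other interneuron marker had an adjusted p of at most 0.05 (edgeR). In which cells Gad1 and Slc32a1 were lower was not tested. At an unadjusted p under 0.05 these lists had 3 higher, 2 lower and 2 higher genes, and DESeq2 and limma called 0 of each. Of the choroid plexus markers 5 of the 6 tested were called lower by edgeR, and 1 by DESeq2 and by limma. None of these markers was at 0 in all mice, and their part in the results was not tested.

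The wider pathway was described by lists of other genes. Of 17 further genes of nitric oxide and cGMP synthesis 11 were tested and 0 were called by edgeR, DESeq2 or limma. Their log2 fold changes had a median of 0.08, with 2 lower and 3 higher at an unadjusted p under 0.05. At an adjusted p of at most 0.05 and any fold change 0 were lower and 1 was higher, against 4.75% and 2.99% of all tested genes (edgeR). Gucy1a2, another alpha subunit of guanylate cyclase, was at 3.14 ± 0.554 CPM in control against 2.84 ± 0.304 CPM in Pcp2-cre mice (SD, n = 3), and Dynll1, the most abundant by FPKM, had a log2 difference of 0.08. The 1 gene of the list past the adjusted p limit of 0.05 was Ddah2, of the dimethylarginine dimethylaminohydrolase family. It had a log2 difference of 0.30 and an adjusted p of 0.0289 (edgeR) that ran from 0.0261 to 0.257 over all alternatives. Of 21 further phosphodiesterases 15 were tested, 1 was called lower and 0 higher by edgeR and by DESeq2, with a median of 0.11. By edgeR 1.79% of all tested genes were called lower and 1.37% higher. At an adjusted p of at most 0.05 and any fold change 1 was lower and 2 were higher, against 4.75% and 2.99% of all tested genes (edgeR). At an unadjusted p under 0.05, 2 of the list were lower and 5 higher. The gene called was Pde7b, a phosphodiesterase of cAMP, at 21.2 ± 0.768 CPM in control against 13.8 ± 2.08 CPM in Pcp2-cre mice, with a log2 fold change of -0.61 and an adjusted p of 0.000668 (edgeR). With limma its call was lost on log2(FPKM + 1), at -0.41 with an adjusted p of 0.0502, and on log2(FPKM + 0.1), at -0.50 with an adjusted p of 0.0558. Pde1c, which hydrolyses both cAMP and cGMP and was the most abundant of the list by FPKM averaged over all 6 mice, was at 152 ± 6.62 CPM in control against 187 ± 1.01 CPM in Pcp2-cre mice, a log2 difference of 0.30 with an adjusted p of 5.01e-05 (edgeR), under the fold limit. With limma on the FPKM values its adjusted p was 0.11 and 0.119, with pseudocounts of 1 and 0.1. Pde8a, a phosphodiesterase of cAMP, had a log2 difference of 0.44 with an adjusted p of 0.00689 (edgeR), which was 0.0731 with DESeq2, 0.0691 without Pcp2-cre mouse 2 and 0.106 and 0.11 with limma. Ddah2 and Pde8a were named after their values were seen. In control mice alone Pde6d was higher than Pde1c, at 23.5 FPKM against 21.6 FPKM.

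Of 25 effectors of cGMP and phosphatase genes 24 were in the table, 17 were tested and 0 were called by edgeR, DESeq2 or limma. Their median was 0.04 on the log2 scale, with 4 lower and 2 higher at an unadjusted p under 0.05. At an adjusted p of at most 0.05 and any fold change 1 was lower and 0 were higher, against 4.75% and 2.99% of all tested genes (edgeR). The most abundant by FPKM averaged over all 6 mice, Ppp1cc, a catalytic subunit of protein phosphatase-1, had a log2 difference of 0.07. In control mice alone Ppp2r1a was higher, at 135 FPKM against 132 FPKM. Ppp1r1b, an inhibitor of protein phosphatase-1 named here after its values were seen, was the 1 gene of the list at an adjusted p of at most 0.05, at 139.9 ± 12.8 CPM in control against 100.2 ± 6.58 CPM in Pcp2-cre mice (SD, n = 3). Every Pcp2-cre mouse was below every control, with a log2 fold change of -0.47 and an adjusted p of 7.8e-06 (edgeR), under the fold limit. It was called lower without control mouse 3, at -0.54, and without Pcp2-cre mouse 2, at -0.50, and ran from -0.60 to -0.36 over all alternatives, with adjusted p of 0.0618 and 0.0693 with limma on the FPKM values. Of 31 genes of the depression machinery of Purkinje cells all 31 were tested. By edgeR 8 were called lower, against 1.79% of all tested genes, and 0 higher, against 1.37%. DESeq2 and limma each called as many, but those called by limma were not all the same genes. The median was -0.24 on the log2 scale. At an adjusted p of at most 0.05 and any fold change 15 were lower, against 4.75% of all tested genes, and 0 higher, against 2.99% (edgeR). At an unadjusted p under 0.05, 18 were lower and 0 higher (edgeR). Camk2a, a calcium and calmodulin-dependent kinase, was at 95.9 ± 6.71 CPM in control against 42.4 ± 3.57 CPM in Pcp2-cre mice, with a log2 fold change of -1.17. Itpr1, the calcium release channel of the endoplasmic reticulum, had a log2 fold change of -0.98. Plcb3, a phospholipase C, changed by -0.71, Homer3, a scaffold protein, by -0.63, and Gria3, an AMPA receptor subunit, by -0.51 on the log2 scale. The call of Gria3 was lost at -0.47 without control mouse 1, at -0.45 with the choroid plexus covariate, at -0.44 on log2(FPKM + 1) and at -0.46 on log2(FPKM + 0.1). That of Homer3 was lost on log2(FPKM + 0.1) by its adjusted p of 0.0513 (limma), at a log2 fold change of -0.64.

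**Figure D4:**
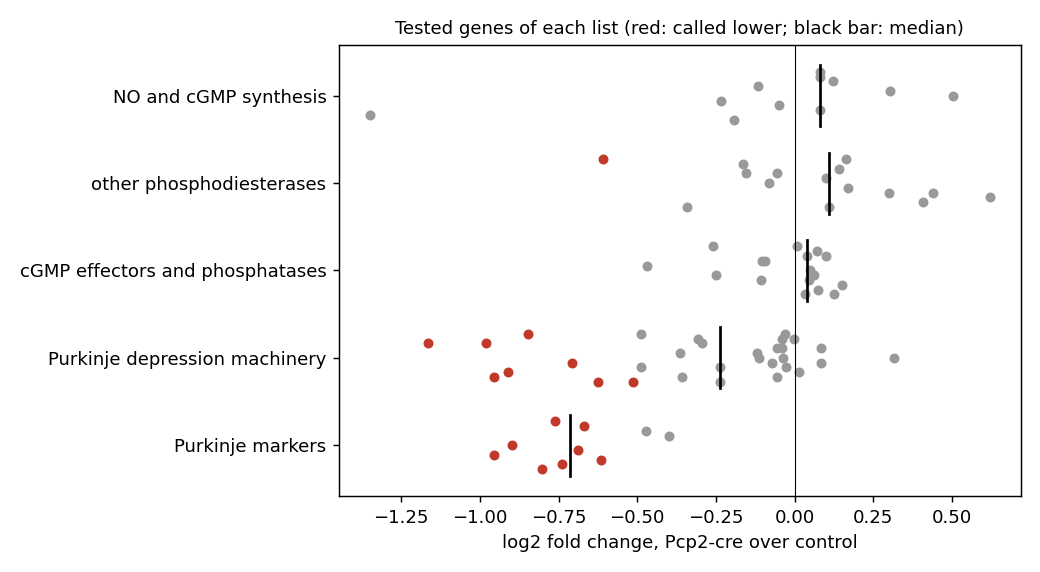
Log2 fold change in Pcp2-cre over control mice (horizontal axis) of each tested gene of the pathway lists and of the Purkinje markers, with genes called lower in red and list medians as black bars. The medians of the synthesis, phosphodiesterase and effector lists were 0.08, 0.11 and 0.04, that of the depression machinery -0.24 and that of the Purkinje markers -0.71.

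Among the genes whose level over the 6 mice was most like that of Prkg1 were Gfra2, Tmtc1, Arid1b and Mpdz, with Pearson r of log2(CPM + 1) from 0.995 to 0.998. For Ppp1r17 they included Rnf19b, Lancl1, Insyn1 and Gm14033, with r from 0.997 to 0.998. These values are a description: the mice fall into both genotypes, and 325 and 328 of 11381 genes with a mean of at least 10 CPM had an r above 0.95.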

How the data were processed

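Whole cerebellum of PBS-perfused mice was sequenced after poly A selection. Per the labels and methods, the authors aligned trimmed reads to GRCm39 with STAR and made deposited counts and deposited FPKM values with featureCounts and StringTie on Gencode, in versions not given in the sources used here. Deposited counts were filtered (filterByExpr), scaled by TMM and tested with edgeR 4.0.16 by quasi-likelihood on genotype alone (R 4.3.3). CPM were computed on the TMM-scaled totals of tested genes, and a floor of 3 counts is 0.297 to 0.447 CPM, a floor that covers counting error only. DESeq2 1.42.0 and limma 3.58.1 on log2 FPKM with pseudocounts of 1 and 0.1 were alternatives. Exon overlaps came from Gencode M39. Replicates differed beyond sampling noise (chi-square per gene of at least 1.37). The text names the 8 genes, every called gene of the pathway lists with Prkg2, Gucy1a2 and Pde1c, the most abundant gene of each list, and the 5 genes most like Prkg1 and Ppp1r17; some genes that this rule takes are not reported here. Members and lists were chosen with earlier results of these data known.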

Additional observations from a re-analysis of the deposited data

Results flagged for a closer look

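Gucy1b1 had opposite signs in male and female mice: relative to controls of the same sex, log2(CPM + 1) was lower in both male Pcp2-cre mice, by -0.07 and -0.11, and higher in the 1 female, by 0.08. The female difference minus the male mean was 0.174. The male controls themselves lay at -0.04 and 0.09 around the control mean, farther apart than either male difference is from 0. For Prkg1, lower in both sexes, the female difference minus the male mean was 0.24. With 1 female per genotype neither difference was tested.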

How the results depend on the processing

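The 3 genes called lower were 3 in each of 15 alternative fits, those leaving out each mouse included, and 4 at any fold change. The count called higher was 0 in those fits and 1 at any fold change, by the construction of that rule. Over all alternatives the log2 fold change ran from -1.22 to -0.88 for Prkg1, -0.92 to -0.75 for Pde5a, -0.88 to -0.70 for Ppp1r17 and -0.48 to -0.37 for Pde9a. Over all genes, 304 were called lower and 233 higher; limma gave 155 and 126 on log2(FPKM + 1) and 167 and 144 on log2(FPKM + 0.1), and DESeq2 gave 231 and 150. The sign of Gucy1b1 turned to 0.0295 with the choroid plexus covariate, 0.0447 on log2(FPKM + 1) and 0.0467 on log2(FPKM + 0.1), and ran from -0.0638 to 0.00973 when single mice were left out. That of Pde1b turned to -0.0252 on log2(FPKM + 1) and -0.0284 on log2(FPKM + 0.1) and ran from -0.0514 to 0.0984 without single mice. Relative to the median of the Purkinje markers the difference was 0.80 for Gucy1a1, 0.53 for Gucy1b1, -0.25 for Pde5a, 0.11 for Pde9a and -0.21 for Ppp1r17. Pde9a was at 0.30 relative to Calb1 alone and 0.31 on log2(FPKM + 1), where Prkg1 was at -0.20 with an exact permutation p of 0.2. The cause was not tested. Whether replicate numbers pair the mice was not decided. Correlations of same-numbered deviations were 0.03, 0.04 and 0.13, and not every mouse correlated best with its own number. The value of 0.13, the highest of any pair, was that of the mice numbered 3, which are also the females. Pairs of a male and a female ran from -0.09 to -0.06. With the replicate block 3 genes were called lower and 0 higher, of 319 and 229 over all genes. Genes under the count filter, such as Prkg2 with 2 to 10 counts a mouse, were not tested.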

Other observations

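Pde2a, a phosphodiesterase stimulated by cGMP, was singled out after its values were seen. It had 5, 1 and 3 counts in control and 6, 6 and 4 in Pcp2-cre mice, but 11.1, 10.3 and 7.80 FPKM in control against 11.2, 12.3 and 13.4 FPKM in Pcp2-cre mice. Gm45837, on the same strand, shares 52.6% of its exon bases and had at most 1 count in any mouse. The cause of this gap between the tables was not tested.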
